A study of Aspergillus nidulans with 12 samples.

Results

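The 58 genes described here are those of *Aspergillus nidulans*, a filamentous fungus, whose transcript level fell strongly after a short exposure to cadmium chloride in both of the strains studied. For every gene and strain, a value L was computed as the log2 of the mean RPKM of CdCl2-treated cultures plus 1 over the mean RPKM of untreated cultures plus 1, and a gene was a member when L was -1 or below in both strains. RPKM is the number of reads scaled to transcript length and library size, so levels of different genes can be set side by side. Of the 10988 genes in the deposited table, 294 reached that L in the TNJ92 mutant and 157 in the THS30 reference strain, and 58 did so in both. At the other end, 202 genes had an L of 1 or above in both strains. The members were thus chosen by their fall under CdCl2, and it is given below as a description without a test.

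The samples were 12 mycelial RNA libraries in 4 groups, with 3 biological replicates in each. TNJ92 (pyrG89; AfupyrG+; pyroA4; ΔatfA::pyroA) lacks *atfA*, the gene of a bZIP transcription factor of the stress response, and THS30 (pyrG89; AfupyrG+; pyroA4; pyroA+) carries it. All cultures of both strains therefore shared the pyrG89 and pyroA4 alleles and the *Aspergillus fumigatus* pyrG gene. Cultures were grown submerged in Barratt's minimal broth, with yeast extract added according to the labels, for 16 h, CdCl2 was added to 0.2 mM or left out, and mycelium was harvested 0.5 h later. Each genotype was represented by a single strain, so genotype and any other difference between these strains cannot be told apart.

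Cadmium is a toxic metal with no known use in fungi. It binds to thiol groups, takes the place of zinc and iron in proteins and disturbs the uptake of both metals. Aconitase, several dehydratases and a subunit of succinate dehydrogenase hold iron-sulfur clusters, which makes mitochondrial carbon use one of the processes that depend on iron. Zinc enters fungal cells through ZIP transporters of the plasma membrane, whose genes are typically switched on when zinc is scarce, and small Cys-rich proteins such as metallothioneins bind metal ions inside the cell. One-carbon metabolism, built on folate, passes single-carbon units between serine, glycine and formate and delivers them to purine synthesis.

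The libraries held 8721119 to 13641031 counts. The *atfA* gene (AN2911) had mean levels of 12.4 RPKM in CdCl2-treated and 14.6 RPKM in untreated TNJ92, against 140.6 RPKM in CdCl2-treated and 178 RPKM in untreated THS30, so it was low but not at 0 in the mutant. Vegetative hyphal genes were well detected, with group means of 127 to 159 RPKM for *chsB*, a chitin synthase gene, and 273 to 393 RPKM for *tubC*, a tubulin gene. The conidiation regulator *brlA* had a mean of 2.23 RPKM in CdCl2-treated and 0.75 RPKM in untreated TNJ92. In THS30 its means were 2.78 RPKM with CdCl2 and 0.987 RPKM without it. Of the other conidiation markers, *abaA*, *wetA* and *wA* had group means of at most 3.69 RPKM. The group means were 4.92 to 10.25 RPKM for *yA* and 9.31 to 32.4 RPKM for *rodA*, whose untreated TNJ92 libraries ranged from 2.15 to 71.4 RPKM. In these bulk samples, fewer cells of a type and less RNA per cell cannot be told apart. Replicate 3 of CdCl2-treated THS30 was the highest of its group for 48 of the 58 members, against 31.6% of the genes tested, and without it 71 genes met the rule, 57 of the 58 among them.

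The members together made up a small part of the RNA. They held 0.284 ± 0.025% of the counts in CdCl2-treated TNJ92 cultures, against 0.907 ± 0.054% in untreated ones (SD, n = 3 each). In THS30 they held 0.534 ± 0.089% of the counts in CdCl2-treated cultures, against 1.46 ± 0.008% in untreated ones (SD, n = 3 each). Their median level was 13.1 RPKM in CdCl2-treated TNJ92 and 40.5 RPKM in untreated TNJ92, and 13.2 RPKM in CdCl2-treated THS30 and 46.6 RPKM in untreated THS30. The genes tested had untreated medians of 17.4 RPKM in TNJ92 and 16.9 RPKM in THS30. Median L was -1.44 in TNJ92, with a range of -3.88 to -1.01, and -1.24 in THS30, with a range of -3.96 to -1.004, whereas the median over the genes tested was 0.12 in TNJ92 and 0.11 in THS30.

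**Figure D1:**
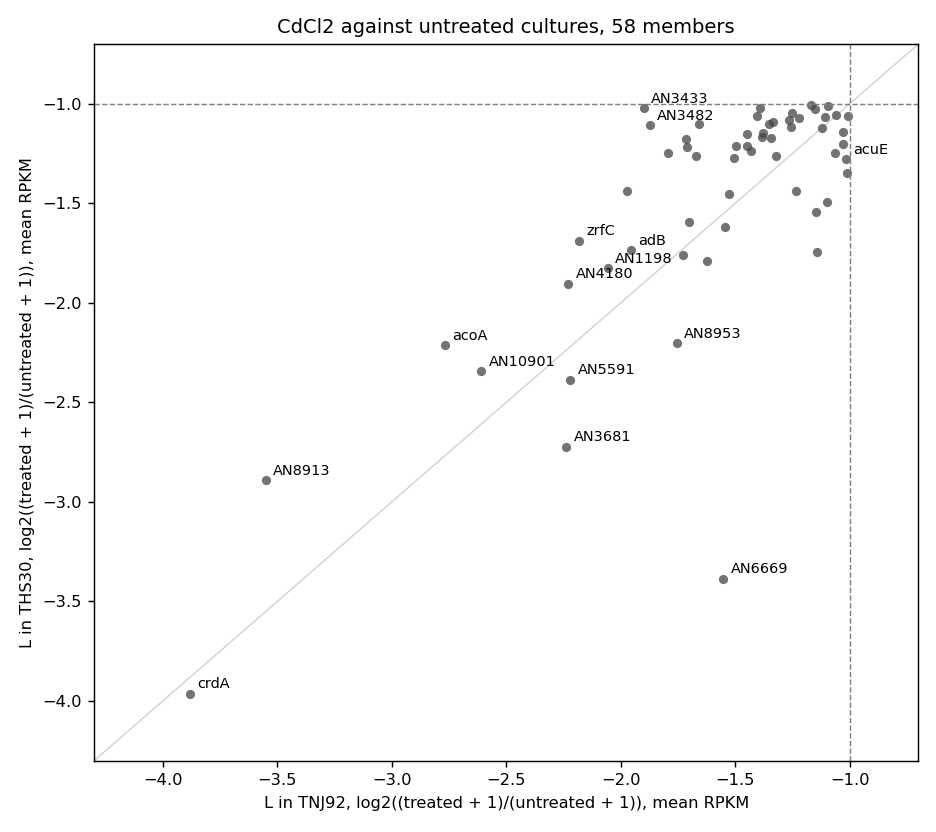
L of each of the 58 members in TNJ92 (x axis) and in THS30 (y axis), from mean RPKM over 3 replicates, with the limit of -1 as dashed lines and equality as the grey line. L was lower in TNJ92 for 39 members and higher for 19, and *crdA* and AN8913 lie at the strongly repressed end while AN6669 lies far below the line.

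L fell to -2 or below for 9 members in TNJ92 and for 8 in THS30. The median difference between the values of L (TNJ92 minus THS30) was -0.17, and 48 of the 58 members differed by less than 0.5, which is read as a description only, since the rule itself holds both values at -1 or below. The 3 CdCl2-treated libraries lay below the 3 untreated ones for 57 members in TNJ92 and for 56 in THS30. Such complete separation occurred for 19.2% of the 10749 genes with a count in TNJ92, for 17% in THS30 and for 9.65% in both, and since the rule chose low values nothing is read from the difference. In the edgeR fit, 57 of the 57 members tested had a lower level in CdCl2-treated TNJ92, where 28.2% of all genes tested were lower and 28.3% higher, and 55 of 57 in THS30, where 21.5% were lower and 22.5% higher. The 2 members that did not pass in THS30 were AN11468 and the tRNA gene tR(CCU)1, and nothing is read from these counts, since the same contrast chose the members.

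**Figure D2:**
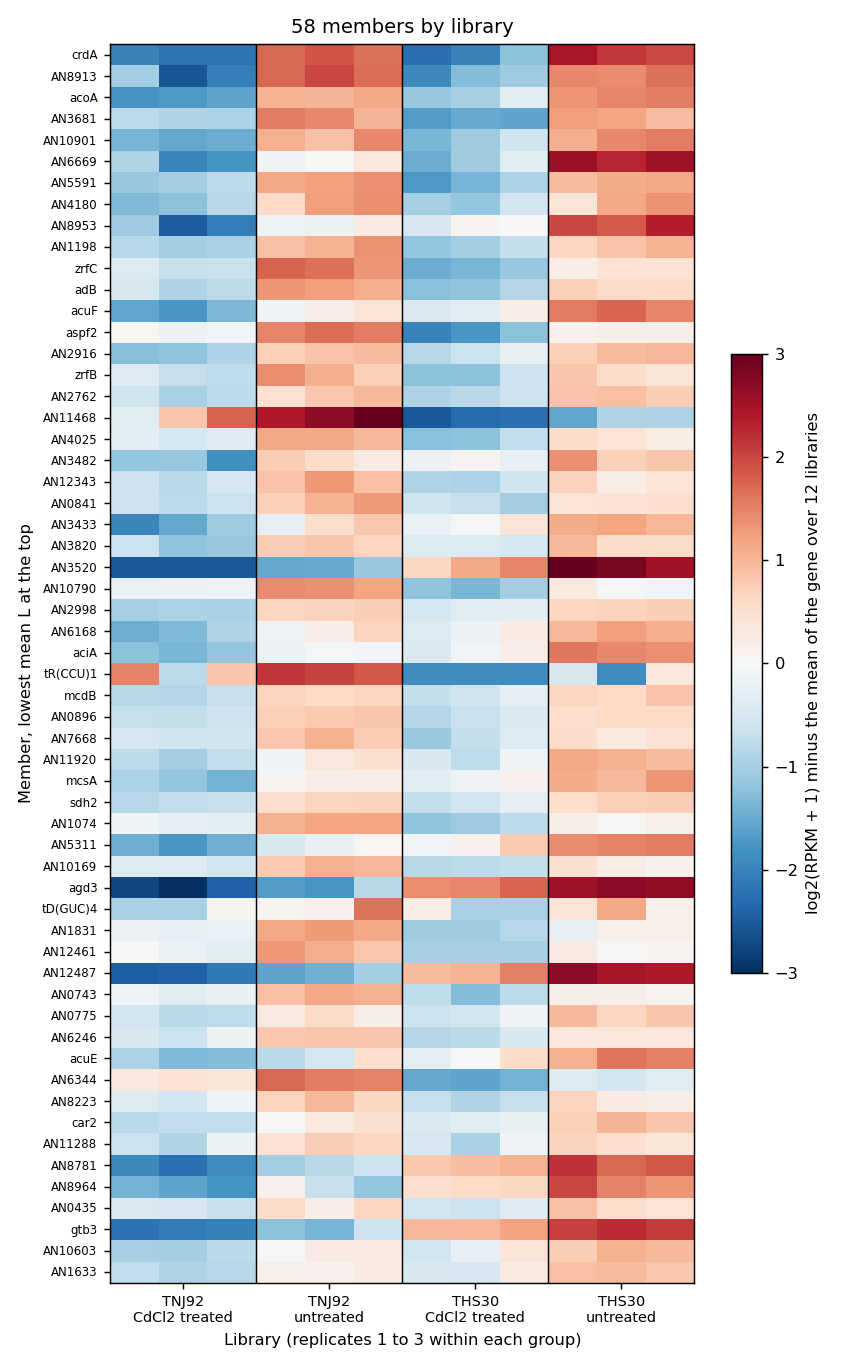
Level of the 58 members (rows, lowest mean L at the top) in the 12 libraries (columns, replicates 1 to 3 within each group), as log2(RPKM + 1) minus the mean of the gene over all libraries. Blue is below and red is above that mean. Most rows are bluer in the CdCl2-treated columns of both strains, while *agd3*, *gtb3*, AN3520, AN12487 and AN8781 are split first by strain.

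A role could be given to 27 members from gene symbols, from the study's gene groups or from its pathway terms, and 31 members had none in the sources used. This sorting by role was made after the values had been seen. The study gives its pathway terms as those enriched among genes it called up- or down-regulated in these same libraries. The sizes of the classes are therefore no independent result. The largest class was central carbon metabolism with 9 members, followed by one-carbon and purine metabolism with 6 and zinc uptake with 3. Cys-rich proteins, galactosaminogalactan genes and tRNA genes had 2 members each, and 3 further members had other annotations.

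The carbon class was led by *acoA* (AN5525), which codes for aconitase, the iron-sulfur enzyme that turns citrate into isocitrate. *acoA* had 50.6, 52.1 and 57.7 RPKM in the CdCl2-treated TNJ92 libraries, against 360.0, 354 and 394 RPKM in the untreated ones. CdCl2-treated THS30 had 79.4, 87.1 and 139 RPKM of *acoA*, against 439, 483 and 507 RPKM in untreated THS30. The groups did not overlap in either strain, and CdCl2 cultures of TNJ92 stood lowest of all. L of *acoA* was -2.77 in TNJ92 and -2.21 in THS30. The study's Fe-S cluster binding group had 47 genes, of which *acoA*, *mcdB* and *sdh2* were members. The other 41 tested genes of that group were mixed, with a median L of -0.02 in TNJ92 and 0.04 in THS30, and with 18 lower and 8 higher in CdCl2-treated TNJ92 and 14 lower and 8 higher in CdCl2-treated THS30.

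The *acuF* gene (AN1918) codes for phosphoenolpyruvate carboxykinase, the entry of gluconeogenesis. Levels of *acuF* in TNJ92 were 67.9, 59.2 and 78.2 RPKM with CdCl2, against 187, 234 and 266 RPKM without it. THS30 cultures gave 148, 159.8 and 231 RPKM with CdCl2, against 598, 678 and 557 RPKM without it. Within each strain the conditions were apart, and the untreated TNJ92 libraries overlapped with the CdCl2-treated THS30 ones. L of *acuF* was -1.73 in TNJ92 and -1.76 in THS30. Malate synthase, an enzyme of the glyoxylate cycle, is the product of *acuE* (AN6653). In TNJ92, *acuE* had 27.6, 21.2 and 21.5 RPKM in CdCl2-treated cultures, against 30.6, 37.5 and 76.97 RPKM in untreated ones. For *acuE* in THS30, CdCl2-treated cultures gave 43.9, 53.6 and 80.6 RPKM, against 114, 167 and 156 RPKM in untreated ones. Its untreated TNJ92 libraries were the most scattered of the class, and the lowest of them lay only a little above the highest CdCl2-treated one.

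Of the respiratory chain, 3 members carried terms for both the citrate cycle and oxidative phosphorylation, namely *sdh2* (AN2332), AN2916 and AN0896, the last 2 named here after their values were seen. The *sdh2* product is the iron-sulfur subunit of succinate dehydrogenase, which feeds electrons from succinate into the chain. *sdh2* had 130.1, 141 and 145 RPKM in the CdCl2-treated TNJ92 libraries, against 332, 376 and 383 RPKM in the untreated ones. The *sdh2* levels of THS30 were 142, 159.9 and 194 RPKM after CdCl2, against 337, 390.0 and 391 RPKM without it. Untreated *sdh2* levels overlapped between the strains. For AN2916, the levels were 47.8, 49.9 and 60.7 RPKM in CdCl2-treated TNJ92 cultures, against 193, 212 and 225 RPKM in untreated ones. CdCl2-treated THS30 had 63.8, 74.6 and 99.8 RPKM of AN2916, against 192, 225 and 235 RPKM in untreated THS30. Here too the untreated libraries of the strains overlapped. For AN0896, the levels were 109, 106 and 114 RPKM in CdCl2-treated TNJ92 cultures, against 289.6, 305 and 314 RPKM in untreated ones. THS30 cultures gave 96.0, 110.0 and 131 RPKM with CdCl2, against 249.7, 269 and 267 RPKM without it. In these genes the conditions did not overlap, and L lay between -1.97 and -1.38 in TNJ92 and between -1.44 and -1.17 in THS30.

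The methylcitrate cycle, by which propionyl-CoA is burned to pyruvate, contributed *mcsA* (AN6650), the methylcitrate synthase gene, and *mcdB* (AN6639), of a methylcitrate dehydratase. Levels of *mcsA* in TNJ92 were 6.26, 5.13 and 4.26 RPKM with CdCl2, against 13.7, 14.97 and 14.96 RPKM without it. For *mcsA* in THS30, CdCl2-treated cultures gave 9.97, 11.7 and 14.4 RPKM, against 29.5, 27.1 and 33.9 RPKM in untreated ones. Untreated *mcsA* means were 14.55 RPKM in TNJ92 and 30.2 RPKM in THS30, against medians of the genes tested of 17.4 and 16.9 RPKM. The *mcsA* levels were lowest in treated TNJ92. In TNJ92, *mcdB* had 51.8, 49.9 and 57.01 RPKM in CdCl2-treated cultures, against 147, 139.6 and 146 RPKM in untreated ones. The *mcdB* levels of THS30 were 56.05, 60.6 and 75.1 RPKM after CdCl2, against 145, 141 and 169 RPKM without it. The fall was of like size in these genes, with L of *mcsA* at -1.32 in TNJ92 and -1.26 in THS30 and L of *mcdB* at -1.43 in TNJ92 and -1.24 in THS30. The study's glyoxylate pathway group had 12 genes, 4 of them members (*acoA*, *mcsA*, *acuE* and *aciA*). Of the other 5 genes tested, 3 were lower and 2 higher in CdCl2-treated TNJ92, and 3 were lower and 0 higher in CdCl2-treated THS30. The citrate synthase gene *citA* had an L of -0.76 in TNJ92 and -0.38 in THS30, and the isocitrate lyase gene *acuD* had 1.31 in TNJ92 and -0.38 in THS30.

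The one-carbon and purine class had a median L of -1.81 in TNJ92 and -1.64 in THS30. AN10901 and AN1074 carried the term C-1 compound catabolism, AN1198 is annotated as a putative aminomethyltransferase, the type of enzyme that hands the methylene group of glycine to folate, and AN2998 as a putative multifunctional folate enzyme. AN10901 had 5.84, 5.22 and 5.42 RPKM in the CdCl2-treated TNJ92 libraries, against 36.5, 31.9 and 47.5 RPKM in the untreated ones. CdCl2-treated THS30 had 5.96, 7.58 and 10.9 RPKM of AN10901, against 37.1, 47.9 and 51.1 RPKM in untreated THS30. The untreated AN10901 libraries of the strains overlapped. Levels of AN1198 in TNJ92 were 14.1, 12.3 and 12.8 RPKM with CdCl2, against 49.4, 55.02 and 67.8 RPKM without it. THS30 cultures gave 11.04, 12.2 and 15.5 RPKM with CdCl2, against 41.6, 48.3 and 55.1 RPKM without it. Both genes had non-overlapping conditions, and their levels after CdCl2 were at most 15.5 RPKM in every library. In TNJ92, AN2998 had 37.2, 38.02 and 37.7 RPKM in CdCl2-treated cultures, against 118, 121 and 125 RPKM in untreated ones. For AN2998 in THS30, CdCl2-treated cultures gave 51.4, 58.3 and 58.4 RPKM, against 117, 121 and 126 RPKM in untreated ones. The untreated libraries of AN2998 were almost equal in the strains, and the CdCl2-treated ones were not. AN1074 had 89.2, 80.3 and 78.7 RPKM in the CdCl2-treated TNJ92 libraries, against 205, 221 and 224 RPKM in the untreated ones. The AN1074 levels of THS30 were 41.7, 44.9 and 55.99 RPKM after CdCl2, against 111, 99.4 and 109 RPKM without it. AN1074, named after its values were seen, had an L of -1.38 in TNJ92 and -1.15 in THS30.

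The study's folate cycle group had 12 genes, and AN1198 and AN2998 were its members here. Of the other 10, 4 were lower and 1 higher in CdCl2-treated TNJ92, and 3 were lower and 6 higher in CdCl2-treated THS30. Their median L was 0.01 in TNJ92 and 0.39 in THS30, and AN0495 stood out upwards with 2.30 in TNJ92 and 1.67 in THS30. Formate is oxidised to CO2 by formate dehydrogenase, the predicted product of *aciA* (AN6525). Levels of *aciA* in TNJ92 were 35.97, 32.4 and 37.8 RPKM with CdCl2, against 76.1, 81.7 and 80.8 RPKM without it. CdCl2-treated THS30 had 63.4, 80.8 and 98.5 RPKM of *aciA*, against 258, 235 and 222 RPKM in untreated THS30. The *aciA* levels of untreated TNJ92 lay within the range of CdCl2-treated THS30. Purine synthesis was represented by *adB* (AN0893). In TNJ92, *adB* had 47.6, 34.6 and 37.99 RPKM in CdCl2-treated cultures, against 169.8, 160.4 and 144 RPKM in untreated ones. THS30 cultures gave 27.3, 28.2 and 35.6 RPKM with CdCl2, against 109.7, 99.6 and 101.1 RPKM without it. L of *adB* was -1.96 in TNJ92 and -1.74 in THS30.

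Of the zinc uptake genes, 2 plasma membrane transporter genes and 1 gene of a secreted protein were members. In *A. fumigatus*, ZrfC is a zinc transporter that works in neutral or alkaline, zinc-poor surroundings, and its gene lies beside *aspf2*, which codes for a secreted zinc-responsive protein. *zrfC* had 4.93, 3.86 and 3.96 RPKM in the CdCl2-treated TNJ92 libraries, against 25.7, 23.8 and 18.8 RPKM in the untreated ones. For *zrfC* in THS30, CdCl2-treated cultures gave 1.80, 2.05 and 2.58 RPKM, against 8.01, 9.75 and 9.58 RPKM in untreated ones. The *zrfC* conditions did not overlap in either strain, and treated THS30 was lowest. Levels of *aspf2* in TNJ92 were 31.6, 26.8 and 28.6 RPKM with CdCl2, against 85.4, 99.1 and 90.0 RPKM without it. The *aspf2* levels of THS30 were 6.82, 8.38 and 12.4 RPKM after CdCl2, against 33.5, 34.6 and 34.6 RPKM without it. Both genes were higher in untreated TNJ92 than in any THS30 library, and CdCl2-treated TNJ92 still held more *aspf2* RNA than CdCl2-treated THS30. In TNJ92, *zrfB* had 15.2, 12.2 and 11.7 RPKM in CdCl2-treated cultures, against 55.7, 44.6 and 33.9 RPKM in untreated ones. CdCl2-treated THS30 had 8.05, 8.07 and 12.99 RPKM of *zrfB*, against 36.9, 30.2 and 26.7 RPKM in untreated THS30. The *zrfB* gene (AN3799), of a transporter that in *A. fumigatus* serves in acidic medium, had an L of -1.70 in TNJ92 and -1.59 in THS30.

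The study's zinc transporter group had 7 genes. Besides *zrfB* and *zrfC*, 4 of the other 5 were lower in CdCl2-treated TNJ92 and 3 in CdCl2-treated THS30, and 0 were higher in either strain. Over all genes tested, 28.2% were lower and 28.3% higher in TNJ92, and 21.5% lower and 22.5% higher in THS30. The falls of these 5 were mostly small, with a median L of -0.21 in TNJ92 and -0.18 in THS30. The nearest to the rule was *zrfD* (AN10468), with an L of -0.53 in TNJ92 and -1.09 in THS30, while *zrfA* (AN8337) had 0.33 in TNJ92 and -0.32 in THS30. The list of iron regulators and siderophore genes, 13 genes in all, held 0 members, where 58 of all 10988 genes were members, so nothing is read from this. Of the 13 genes, 5 were lower and 4 higher in CdCl2-treated TNJ92. In CdCl2-treated THS30, 4 were lower and 5 higher.

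The *zrfC* and *aspf2* genes are neighbours on chromosome VII, and the gene on the other side of *aspf2*, AN1831, was a member too. AN1831 had 2.77, 2.61 and 2.74 RPKM in the CdCl2-treated TNJ92 libraries, against 8.53, 9.31 and 8.36 RPKM in the untreated ones. THS30 cultures gave 1.04, 1.03 and 1.36 RPKM with CdCl2, against 2.59, 3.72 and 3.71 RPKM without it. In the RefSeq annotation AN1831 and *aspf2* share 64 bases, and as no source used here gives the strand setting of the counting, reads of that stretch cannot be told apart. The next genes outward, AN1829, AN1830 and AN1835, had mean levels of at most 0.0419 RPKM in every group. The 3 members were the longest run of adjacent members, and the only other run was the pair of *gtb3* and *agd3* on chromosome VI. In *A. fumigatus* these belong to the genes of galactosaminogalactan, a secreted wall polysaccharide, with Agd3 as its deacetylase and Gtb3 as a glycosyltransferase.

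**Figure D3:**
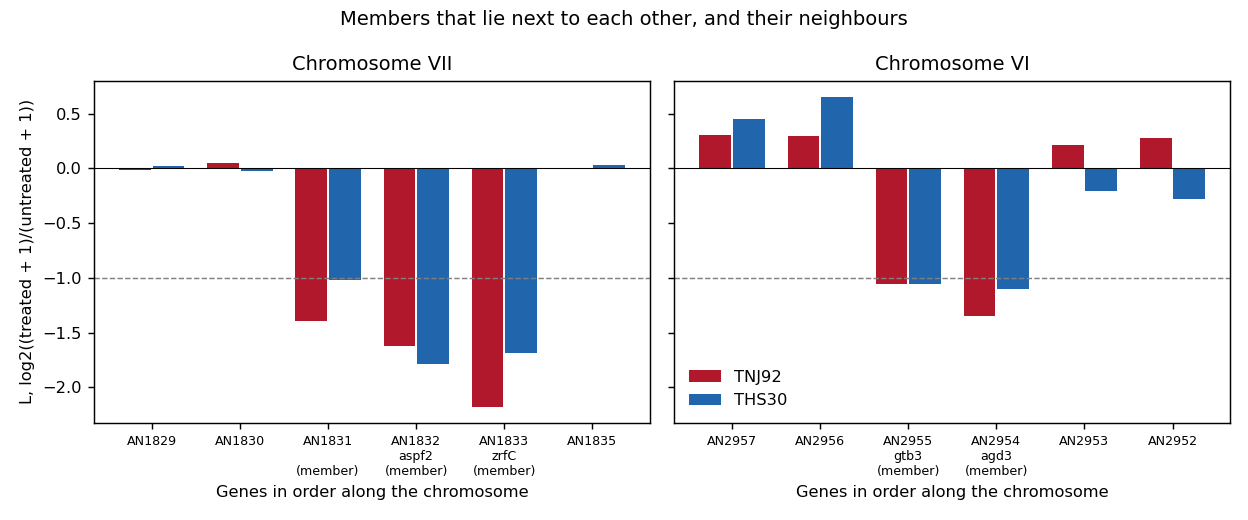
L in TNJ92 (red) and THS30 (blue) of the adjacent members and of the genes beside them, in their order along chromosome VII (left) and chromosome VI (right), from mean RPKM over 3 replicates, with the limit of -1 dashed. The 3 members on chromosome VII and the 2 on chromosome VI are at -1.02 or below in both strains, while the genes beside them lie between -0.28 and 0.66.

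Both wall polysaccharide genes were at low levels in TNJ92. Levels of *agd3* in TNJ92 were 5.94, 4.48 and 7.497 RPKM with CdCl2, against 13.3, 12.6 and 24.5 RPKM without it. For *agd3* in THS30, CdCl2-treated cultures gave 119, 123 and 152 RPKM, against 264, 297 and 289 RPKM in untreated ones. The highest *agd3* library of TNJ92 was thus far below the lowest of THS30. In TNJ92, *gtb3* had 1.65, 1.89 and 2.00 RPKM in CdCl2-treated cultures, against 4.21, 3.65 and 6.92 RPKM in untreated ones. The *gtb3* levels of THS30 were 23.6, 23.6 and 27.3 RPKM after CdCl2, against 49.4, 57.02 and 51.5 RPKM without it. Their fall under CdCl2 was close to the limit, with L between -1.35 and -1.05 in both strains. The gene beside *agd3*, AN2953, had an L of 0.21 in TNJ92 and -0.20 in THS30, with a mean of 168 RPKM in CdCl2-treated TNJ92 and 144.5 RPKM in untreated TNJ92, and 269 RPKM in CdCl2-treated THS30 and 310.2 RPKM in untreated THS30. AN2953 and *gtb3* were named here after their values were seen.

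The lowest mean L of the 58 members was that of *crdA* (AN7011), the gene of a putative Cys-rich metallothionein, the kind of protein that binds soft metal ions. *crdA* had 24.7, 21.9 and 21.5 RPKM in the CdCl2-treated TNJ92 libraries, against 339, 381 and 324 RPKM in the untreated ones. CdCl2-treated THS30 had 20.3, 24.8 and 42.5 RPKM of *crdA*, against 559, 446 and 406 RPKM in untreated THS30. L of *crdA* was -3.88 in TNJ92 and -3.96 in THS30. The other Cys-rich member, AN11288, has an annotated length of 60 bases, and its levels were 46.7 to 76.7 RPKM in CdCl2-treated TNJ92, against 119 to 147 RPKM in untreated TNJ92, and 43.9 to 79.7 RPKM in CdCl2-treated THS30, against 113 to 141 RPKM in untreated THS30. Of the other 15 tested genes in the study's Cys rich group, 5 were lower and 4 higher in CdCl2-treated TNJ92, and 5 were lower and 2 higher in CdCl2-treated THS30.

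**Figure D4:**
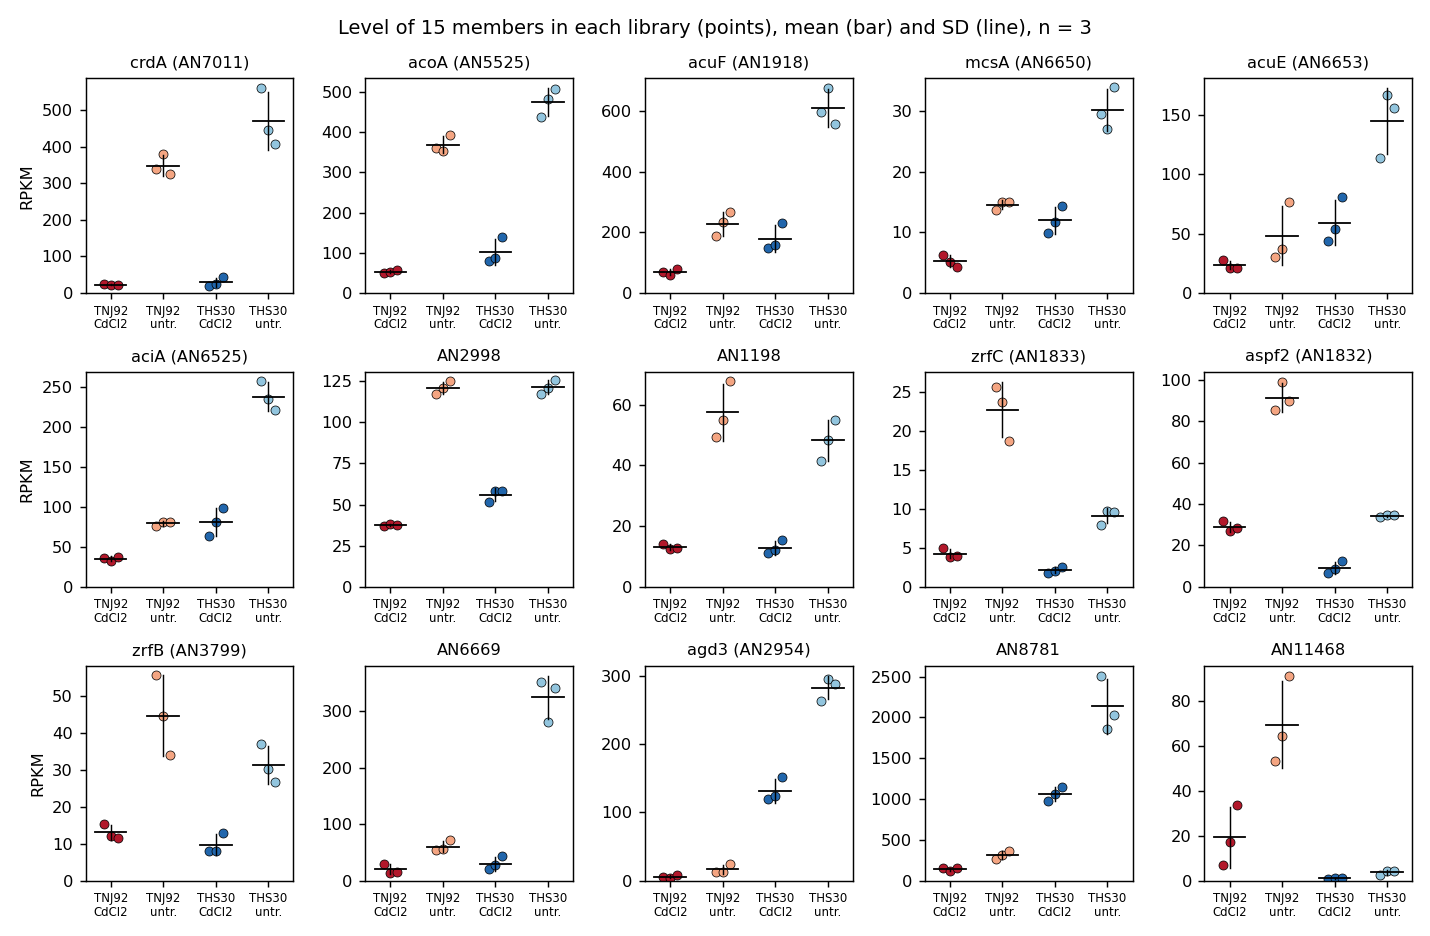
RPKM of 15 members in each library (points), with the mean of the group (bar) and the SD (vertical line), n = 3, in CdCl2-treated and untreated TNJ92 and in CdCl2-treated and untreated THS30, each panel with its own axis from 0. The *crdA* libraries sit between 20.3 and 42.5 RPKM after CdCl2 and between 324 and 559 RPKM without it, while *agd3* and AN8781 are lower in both TNJ92 groups than in both THS30 groups.

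Several of the most repressed members had no role in the sources used. Levels of AN8913 in TNJ92 were 3.15, 0.441 and 1.07 RPKM with CdCl2, against 27.2, 33.3 and 26.3 RPKM without it. THS30 cultures gave 1.26, 2.49 and 3.10 RPKM with CdCl2, against 22.2, 21.7 and 26.1 RPKM without it. AN8913 was next to *crdA* in the size of its fall, with an L of -3.55 in TNJ92 and -2.89 in THS30. In TNJ92, AN3681 had 15.5, 13.9 and 13.6 RPKM in CdCl2-treated cultures, against 81.7, 75.9 and 56.1 RPKM in untreated ones. For AN3681 in THS30, CdCl2-treated cultures gave 7.87, 8.85 and 8.34 RPKM, against 66.6, 63.2 and 52.5 RPKM in untreated ones. L of AN3681 was -2.24 in TNJ92 and -2.72 in THS30. AN5591 had 34.7, 37.8 and 44.5 RPKM in the CdCl2-treated TNJ92 libraries, against 173, 182 and 201 RPKM in the untreated ones. The AN5591 levels of THS30 were 22.8, 28.6 and 39.8 RPKM after CdCl2, against 149, 167 and 173 RPKM without it. The conditions did not overlap in any of these genes. AN4180 was weakly transcribed, with 0.212 to 0.688 RPKM in CdCl2-treated TNJ92 and 3.57 to 6.92 RPKM in untreated TNJ92, and with 0.341 to 1.03 RPKM in CdCl2-treated THS30 and 2.85 to 6.67 RPKM in untreated THS30. AN8953, which carried a term for starch and sucrose metabolism, had 5.81 to 17.1 RPKM in CdCl2-treated TNJ92 and 33.1 to 45.2 RPKM in untreated TNJ92. In THS30 its levels were 26.4 to 40.02 RPKM in CdCl2-treated cultures and 138 to 198 RPKM in untreated ones.

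The remaining members, of which a few were picked after their values had been seen, were repressed to a lesser degree. Levels of AN4025 in TNJ92 were 117, 103 and 114 RPKM with CdCl2, against 336, 335 and 293 RPKM without it. CdCl2-treated THS30 had 62.4, 62.7 and 88.9 RPKM of AN4025, against 217, 199 and 175 RPKM in untreated THS30. The conditions of AN4025 did not overlap in either strain. In TNJ92, AN6168 had 46.9, 51.8 and 69.7 RPKM in CdCl2-treated cultures, against 119, 152 and 209 RPKM in untreated ones. THS30 cultures gave 98.5, 116 and 155 RPKM with CdCl2, against 265, 316 and 279.8 RPKM without it. AN6168 carried terms for the tricarboxylic acid pathway and pyruvate metabolism, and its L was -1.50 in TNJ92 and -1.21 in THS30. AN3433 had 18.1, 24.8 and 34.7 RPKM in the CdCl2-treated TNJ92 libraries, against 62.4, 106 and 129 RPKM in the untreated ones. For AN3433 in THS30, CdCl2-treated cultures gave 64.4, 70.5 and 98.7 RPKM, against 161, 168 and 148 RPKM in untreated ones. AN3433 had an L of -1.90 in TNJ92 and -1.02 in THS30, so it met the rule narrowly in THS30. Levels of *car2* in TNJ92 were 15.3, 16.01 and 16.1 RPKM with CdCl2, against 27.4, 33.95 and 38.6 RPKM without it. The *car2* levels of THS30 were 19.5, 20.97 and 23.4 RPKM after CdCl2, against 45.2, 56.2 and 49.3 RPKM without it. The *car2* gene (AN1810) shares its name with the ornithine aminotransferase gene of *Saccharomyces cerevisiae*, and its L was -1.03 in TNJ92 and -1.20 in THS30. In TNJ92, AN2762 had 15.9, 11.9 and 13.8 RPKM in CdCl2-treated cultures, against 34.2, 43.8 and 49.1 RPKM in untreated ones. CdCl2-treated THS30 had 12.5, 13.2 and 15.7 RPKM of AN2762, against 45.3, 46.6 and 41.6 RPKM in untreated THS30. AN2762 carried a term for electron transport, and its untreated libraries overlapped between the strains. AN12343, AN0841, AN10790, AN7668, AN11920, AN5311, AN10169, AN12461, AN0743, AN0775, AN8223, AN8964, AN0435 and AN10603 had L between -1.71 and -1.03 in TNJ92 and between -1.49 and -1.01 in THS30. The 31 members with no role had untreated means, over both strains, of 4.44 to 3372 RPKM and a median L of -1.39 in TNJ92 and -1.17 in THS30.

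At the upper end of the levels stood AN6246, a gene of 394 bases with no name. AN6246 had 1587, 1413 and 1962 RPKM in the CdCl2-treated TNJ92 libraries, against 3909, 3966 and 3934 RPKM in the untreated ones. THS30 cultures gave 1218, 1274 and 1583 RPKM with CdCl2, against 2836, 2816 and 2772 RPKM without it. It was the most abundant member in untreated cultures, with a mean over both strains of 3372 RPKM, ahead of AN8781 with 1223 RPKM and *acoA* with 423 RPKM. Levels of AN8781 in TNJ92 were 149, 118 and 149.7 RPKM with CdCl2, against 269.9, 311 and 361 RPKM without it. For AN8781 in THS30, CdCl2-treated cultures gave 977, 1062 and 1150.1 RPKM, against 2509, 1858 and 2032 RPKM in untreated ones. The CdCl2-treated THS30 libraries of AN8781 were above every TNJ92 library.

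The level in TNJ92 was set against that in THS30 separately in untreated and in CdCl2-treated cultures with the quasi-likelihood test of edgeR and Benjamini-Hochberg adjustment over the 9070 genes tested. The rule did not use this difference, although the comparisons share their libraries with the values of L. In CdCl2-treated cultures, 13 of the 57 members tested were higher in TNJ92 and 26 lower, where 27.8% of all genes tested were higher and 27.8% lower. The median log2 fold change of the members was -0.41, against 0.00 over all genes tested. In untreated cultures 19 members were higher and 20 lower, where 32% of all genes tested were higher and 29.6% lower, and the median was -0.06, against 0.03 over all genes. In both conditions 12 members were higher in TNJ92 and 18 lower, where 18.1% of all genes tested were higher in both and 19.5% lower, and 0 members were called in opposite directions, against 3.14% of all genes tested. Leaving out CdCl2-treated THS30 replicate 3 gave 16 higher and 21 lower members in CdCl2-treated cultures.

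**Figure D5:**
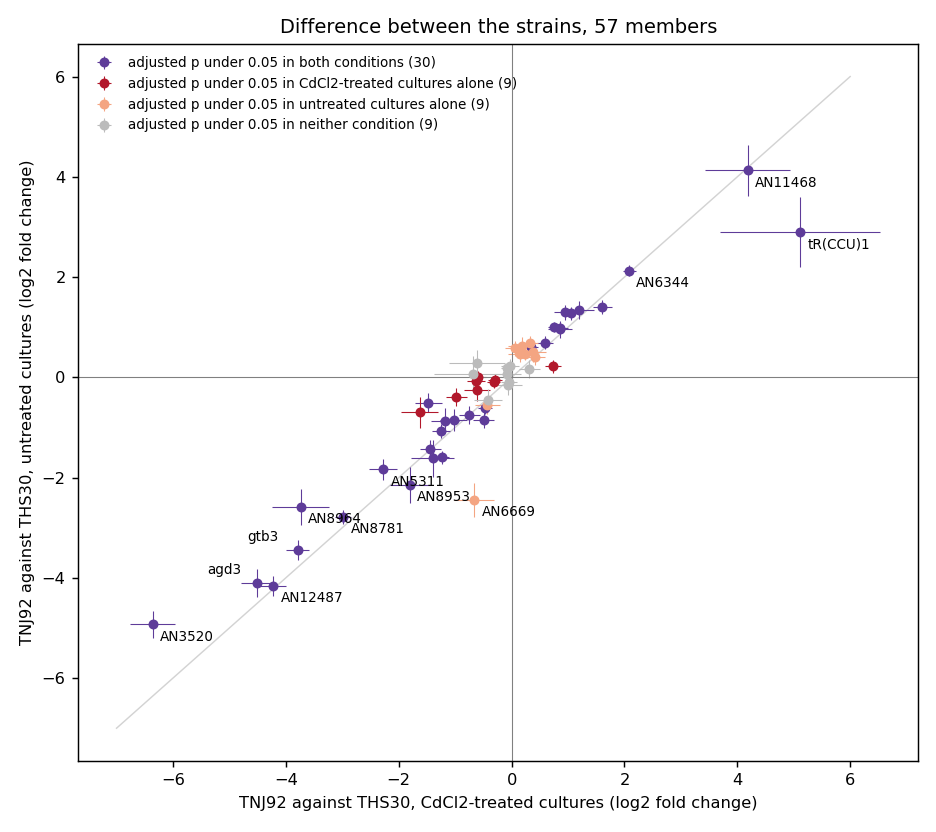
Fitted log2 fold change of TNJ92 over THS30 in CdCl2-treated cultures (x axis) and in untreated cultures (y axis) for the 57 members tested, with standard errors as lines, coloured by the conditions in which the adjusted p of edgeR was under 0.05. Most points follow the grey line of equality, among the protein-coding genes from AN3520 with -6.36 and -4.93 to AN11468 with 4.18 and 4.13. The tRNA gene tR(CCU)1, with few counts, lies furthest right, and it and AN6669 lie furthest off the line.

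Of the 9 genes of the carbon class, 8 were lower in TNJ92 in CdCl2-treated cultures, 4 were lower in untreated ones and 0 were higher in either. Among all members tested, 45.6% were lower in CdCl2-treated and 35.1% in untreated cultures, against 27.8% and 29.6% of all genes tested. The class was formed after the values were seen, so nothing is read from its counts. The difference between the strains was large for *acuF*, with a log2 fold change of -1.44 ± 0.19 (SE; adjusted p = 1.87e-05 by edgeR) in CdCl2-treated and -1.43 ± 0.18 (adjusted p = 1.41e-05) in untreated cultures. For *mcsA* it was -1.25 ± 0.16 (adjusted p = 5.15e-06) in CdCl2-treated and -1.07 ± 0.14 (adjusted p = 6.17e-06) in untreated cultures. The *acoA* gene was lower in TNJ92 in CdCl2-treated cultures, with -0.98 ± 0.18 (adjusted p = 0.000429), and had -0.39 ± 0.18 (adjusted p = 0.0733) in untreated ones, where it passed with DESeq2 (adjusted p = 0.045), with the untreated groups fitted alone (0.00159) and without CdCl2-treated THS30 replicate 1 (0.0324) or 3 (0.00092). For *acuE* the values were -1.40 ± 0.38 (adjusted p = 0.0123) in CdCl2-treated and -1.61 ± 0.37 (adjusted p = 0.00447) in untreated cultures, and without CdCl2-treated THS30 replicate 3 the CdCl2 value was -1.06 (adjusted p = 0.052). The calls of *mcdB* and *sdh2* in CdCl2-treated cultures were near the threshold. *mcdB* had -0.32 ± 0.12 (adjusted p = 0.0288), which reached 0.26 without CdCl2-treated THS30 replicate 3, 0.0978 without CdCl2-treated TNJ92 replicate 1 and 0.0965 without replicate 2. *sdh2* had -0.30 ± 0.12 (adjusted p = 0.0469), and leaving out 1 library ended its call in 7 of 12 fits, with adjusted p up to 0.367.

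In untreated cultures, 32% of all genes tested were higher in TNJ92 and 29.6% lower. The 3 zinc uptake members were higher in untreated TNJ92, but their class too was formed after the values were seen. Nothing is read from its count. Of the 5 other genes of the study's zinc transporter group, 3 were higher in untreated TNJ92 too and 2 lower. The higher ones, named after their values were seen, were AN1795 with a log2 fold change of 0.53 (adjusted p = 0.000247 by edgeR), AN1076 with 0.33 (0.0377) and AN7673 with 0.30 (0.0382). The lower ones were *zrfD* with -0.42 (adjusted p = 0.00483) and *zrfA* with -0.51 (adjusted p = 0.0403). For *aspf2* the log2 fold change was 1.61 ± 0.16 (adjusted p = 3.01e-07 by edgeR) in CdCl2-treated and 1.40 ± 0.14 (adjusted p = 3.18e-07) in untreated cultures. For *zrfC* it was 0.94 ± 0.19 (adjusted p = 0.000471) in CdCl2-treated and 1.30 ± 0.15 (adjusted p = 9.81e-07) in untreated cultures. *zrfB* had 0.38 ± 0.23 (adjusted p = 0.186) in CdCl2-treated and 0.51 ± 0.21 (adjusted p = 0.0498) in untreated cultures. Without CdCl2-treated THS30 replicate 3 the CdCl2 value was 0.69 (adjusted p = 0.0125), and the call in untreated cultures was lost in 7 of 12 fits without 1 library, with adjusted p up to 0.191.

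In the one-carbon and purine class the directions were mixed. *aciA* was lower in TNJ92, with a log2 fold change of -1.24 ± 0.14 (adjusted p = 1.08e-06 by edgeR) in CdCl2-treated and -1.60 ± 0.13 (adjusted p = 3.45e-08) in untreated cultures. AN1074 was higher, with 0.75 ± 0.11 (adjusted p = 1.42e-05) in CdCl2-treated and 1.01 ± 0.10 (adjusted p = 3.19e-07) in untreated cultures. *adB* was higher as well, with 0.35 ± 0.12 (adjusted p = 0.0216) in CdCl2-treated and 0.60 ± 0.12 (adjusted p = 0.0003) in untreated cultures. The call in CdCl2-treated cultures was lost for *adB* without CdCl2-treated THS30 replicate 1 or 2 or CdCl2-treated TNJ92 replicate 1, with adjusted p of 0.107, 0.0936 and 0.13. AN10901 had -0.62 ± 0.24 (adjusted p = 0.0456) in CdCl2-treated cultures, a call lost in 7 of 12 fits without 1 library, with adjusted p up to 0.223.

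Several members were far lower in TNJ92 than in THS30. In TNJ92, AN3520 had 0.169, 0.165 and 0.161 RPKM in CdCl2-treated cultures, against 1.30, 1.36 and 2.04 RPKM in untreated ones. The AN3520 levels of THS30 were 9.33, 13.7 and 17.5 RPKM after CdCl2, against 59.8, 46.3 and 37.2 RPKM without it. All 3 CdCl2-treated TNJ92 libraries of AN3520 held 4 counts each. Its log2 fold change was -6.36 ± 0.40 (adjusted p = 1.97e-08 by edgeR) in CdCl2-treated and -4.93 ± 0.27 (adjusted p = 4.51e-09) in untreated cultures. *agd3* had -4.50 ± 0.29 (adjusted p = 2.4e-07) in CdCl2-treated and -4.10 ± 0.28 (adjusted p = 3.19e-07) in untreated cultures. AN12487 had 1.33, 1.41 and 1.95 RPKM in the CdCl2-treated TNJ92 libraries, against 3.33, 3.79 and 5.37 RPKM in the untreated ones. CdCl2-treated THS30 had 23.95, 25.8 and 35.7 RPKM of AN12487, against 83.4, 70.4 and 67.9 RPKM in untreated THS30. AN12487 had -4.22 ± 0.23 (adjusted p = 2.5e-09) in CdCl2-treated and -4.16 ± 0.20 (adjusted p = 7.25e-10) in untreated cultures. AN8781 had -2.98 ± 0.14 (adjusted p = 1.37e-11) in CdCl2-treated and -2.78 ± 0.14 (adjusted p = 2.14e-11) in untreated cultures. Also lower in TNJ92, and named after their values were seen, were AN8964, with -3.74 ± 0.50 in CdCl2-treated and -2.59 ± 0.36 in untreated cultures, and AN5311, with -2.27 ± 0.25 in CdCl2-treated and -1.84 ± 0.21 in untreated cultures. AN8964 rested on few reads in TNJ92, with 12, 9 and 5 counts in CdCl2-treated and 81, 34 and 20 in untreated cultures.

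Of the members higher in TNJ92, AN11468 differed most among the protein-coding genes. Levels of AN11468 in TNJ92 were 6.99, 17.1 and 33.7 RPKM with CdCl2, against 52.95, 64.2 and 90.9 RPKM without it. THS30 cultures gave 0.785, 1.05 and 1.16 RPKM with CdCl2, against 2.45, 4.45 and 4.34 RPKM without it. The TNJ92 libraries were all above the THS30 libraries, although the CdCl2-treated THS30 libraries held only 2, 3 and 3 counts. Its log2 fold change was 4.18 ± 0.76 (adjusted p = 0.000683 by edgeR) in CdCl2-treated and 4.13 ± 0.51 (adjusted p = 3.08e-05) in untreated cultures. In TNJ92, AN6344 had 17.5, 19.2 and 18.1 RPKM in CdCl2-treated cultures, against 48.2, 42.5 and 40.8 RPKM in untreated ones. For AN6344 in THS30, CdCl2-treated cultures gave 4.12, 3.94 and 4.52 RPKM, against 10.1, 9.10 and 10.6 RPKM in untreated ones. AN6344 had 2.08 ± 0.12 (adjusted p = 1.02e-10) in CdCl2-treated and 2.13 ± 0.11 (adjusted p = 2.1e-11) in untreated cultures. The 9 members with no call between the strains in either condition included *crdA*, AN8913, AN5591 and AN1198, but leaving out a library gave some of them a call. For *crdA* the difference was -0.41 ± 0.25 (adjusted p = 0.185) in CdCl2-treated and -0.45 ± 0.21 (adjusted p = 0.087) in untreated cultures. The untreated *crdA* difference passed with the untreated groups fitted alone (-0.47, adjusted p = 0.00404) and without CdCl2-treated THS30 replicate 1 (-0.45, 0.0305) or 3 (-0.47, 0.000977), and the CdCl2 difference without CdCl2-treated THS30 replicate 1 (-0.63, 0.0254). AN8913 had -0.61 ± 0.50 (adjusted p = 0.317) in CdCl2-treated cultures and -1.59 (0.00893) without CdCl2-treated TNJ92 replicate 1. AN5591 had 0.32 ± 0.18 (adjusted p = 0.16) in CdCl2-treated cultures and 0.61 (0.00165) without CdCl2-treated THS30 replicate 3.

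Whether the strains differed in the size of the response itself was tested with the interaction term of the same edgeR fit. For 1 of 57 members the response was more positive in TNJ92, that is weaker repression, and for 3 it was more negative, whereas over all genes tested 13.2% were more positive and 13.6% more negative. A gene with opposite responses cannot meet the rule, so the low share of the members is no independent result. The clearest case was AN2998, with an interaction of -0.59 ± 0.12 on the log2 scale (adjusted p = 0.00156). It stayed past the threshold in all 12 fits without 1 library, with -0.67 to -0.50. Its levels, given above with the one-carbon genes, were lower in TNJ92 after CdCl2, with a log2 fold change of -0.62 ± 0.09 (adjusted p = 1.14e-05), and had -0.02 ± 0.08 (adjusted p = 0.817) without it.

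AN6669 had 30.1, 13.8 and 15.9 RPKM in the CdCl2-treated TNJ92 libraries, against 53.4, 56.7 and 71.1 RPKM in the untreated ones. The AN6669 levels of THS30 were 19.8, 26.8 and 44.04 RPKM after CdCl2, against 352, 282 and 342 RPKM without it. AN6669 thus had far lower levels in untreated TNJ92 than in untreated THS30, with an L of -1.55 in TNJ92 and -3.38 in THS30. Its interaction was 1.79 ± 0.48 (adjusted p = 0.0252 by edgeR). The untreated cultures of the strains differed by -2.45 ± 0.35 (adjusted p = 0.000221) and the CdCl2-treated ones by -0.66 ± 0.35 (adjusted p = 0.141), a value that ranged from -1.05 (adjusted p = 0.024, without CdCl2-treated TNJ92 replicate 1) to -0.24 (0.561, without CdCl2-treated THS30 replicate 3) when 1 library was left out. The interaction did not pass without CdCl2-treated THS30 replicate 2 (adjusted p = 0.0628), untreated THS30 replicate 3 (0.0555) or untreated TNJ92 replicate 1 or 2 (0.061 and 0.0521).

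AN3482 and AN3820 were the other members with stronger repression in TNJ92. Levels of AN3482 in TNJ92 were 4.70, 4.80 and 2.53 RPKM with CdCl2, against 20.2, 17.5 and 14.3 RPKM without it. CdCl2-treated THS30 had 10.3, 12.4 and 9.73 RPKM of AN3482, against 32.03, 19.98 and 21.5 RPKM in untreated THS30. Its interaction was -0.98 ± 0.31 (adjusted p = 0.0283 by edgeR). In TNJ92, AN3820 had 20.7, 13.6 and 14.5 RPKM in CdCl2-treated cultures, against 55.6, 59.02 and 52.4 RPKM in untreated ones. THS30 cultures gave 24.4, 24.6 and 22.5 RPKM with CdCl2, against 66.6, 49.3 and 49.2 RPKM without it. For AN3820 the interaction was -0.60 ± 0.19 (adjusted p = 0.0292). In both genes the untreated libraries of the strains overlapped and the CdCl2-treated ones did not. AN3482 lost its call without CdCl2-treated TNJ92 replicate 3, untreated TNJ92 replicate 1 or 2, CdCl2-treated THS30 replicate 2 or untreated THS30 replicate 2 or 3, with adjusted p of 0.0573 to 0.0786. Its lower level in untreated TNJ92, -0.50 ± 0.19 (adjusted p = 0.0333), was lost without untreated TNJ92 replicate 2 or 3 or untreated THS30 replicate 1, with adjusted p of 0.0668, 0.121 and 0.202. AN3820 lost its interaction call without CdCl2-treated TNJ92 replicate 2 or 3, untreated TNJ92 replicate 2, CdCl2-treated THS30 replicate 1 or 2 or untreated THS30 replicate 2 or 3, with adjusted p of 0.0503 to 0.0877. Without CdCl2-treated THS30 replicate 3, *aspf2* (0.55, adjusted p = 0.0194), *aciA* (0.59, adjusted p = 0.00621) and AN1633 (0.41, adjusted p = 0.048) passed in addition, all with a more positive response in TNJ92. A more negative response passed for *acoA* (-0.76, adjusted p = 0.0212) and AN3520 (-1.65, 0.0179) without CdCl2-treated THS30 replicate 1 and for AN8913 (-1.88, 0.0111) without CdCl2-treated TNJ92 replicate 1, and a more positive one for AN3681 without untreated TNJ92 replicate 1 (0.62, 0.0273) or untreated THS30 replicate 3 (0.60, 0.0404).

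Genes lay close to the limit of -1 on both sides. Just inside it were AN8781 (L of -1.17 in TNJ92 and -1.0038 in THS30), AN1633 (-1.0064 in TNJ92 and -1.06 in THS30) and AN12487 (-1.0099 in TNJ92 and -1.35 in THS30). Just outside were AN11410 (-1.21 in TNJ92 and -0.999 in THS30), AN7399 (-1.90 in TNJ92 and -0.997 in THS30) and AN11882 (-1.20 in TNJ92 and -0.994 in THS30). The 2 tRNA genes among the members rested on few reads. tR(CCU)1 had 8, 1 and 5 counts in CdCl2-treated TNJ92 and 14, 12 and 12 in untreated TNJ92, and 0, 0 and 0 counts in CdCl2-treated THS30 and 1, 0 and 3 in untreated THS30. tD(GUC)4 had 0, 0 and 1 counts in CdCl2-treated TNJ92 and 1, 1 and 5 in untreated TNJ92, and 1, 0 and 0 counts in CdCl2-treated THS30 and 1, 3 and 1 in untreated THS30, and it was too low to be tested. tR(CCU)1 was among the members higher in TNJ92 in both conditions, but with 0 counts in CdCl2-treated THS30 no fold is given.

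The members had a median transcript length of 1350 bases, against 1490 bases over all genes. Of the 51 matched to the RefSeq annotation, 10 lay on chromosome VII, 9 each on I and VIII, 8 on II, 6 on VI, 4 on V, 3 on IV and 2 on III. That annotation had 1567 genes on VII, 1320 on I, 1758 on VIII, 1421 on II, 1159 on VI, 1105 on V, 994 on IV and 1192 on III. Apart from the runs on chromosomes VI and VII the members were not adjacent.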

How the data were processed

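Per the labels and the study's methods, total RNA of lyophilised mycelium was made into TruSeq libraries and sequenced as single reads, which the authors checked with FastQC and aligned with HISAT2 2.1.0 to the *A. nidulans* FGSC A4 genome. For the counting program and its strand setting, nothing is stated in the sources used here. The deposited table holds, for 10988 genes (208 tRNA genes among them) and 12 libraries, a whole-number read count and an RPKM value that the authors made with edgeR. Each deposited RPKM equalled the count divided by transcript length and by the library total, so L was computed from RPKM means with a pseudocount of 1 RPKM and understates the change of weak genes. No count was found for 239 genes, and 0 columns of per-sample values were left unused.

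The deposited counts were tested with edgeR 4.0.16 (R 4.3.3): filterByExpr with a minimum count of 10 kept 9070 genes, and a robust quasi-likelihood model with TMM factors was fitted over the 4 groups. Standard errors were obtained as |log2 fold change|/sqrt(F). Benjamini-Hochberg adjustment was over all genes tested, at a threshold of 0.05. The steps were tested on simulated data, where most of the known changes were recovered. Gene names came from the study's supplement and from RefSeq (51 of 58 members matched), gene groups from that supplement. Alternatives were DESeq2 1.42.0, RLE scaling, no filter, the 2 compared groups alone, a replicate block, 1 library left out, other pseudocounts and, chosen after seeing the data, scaling by library totals.

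The members, lists and gene groups were chosen with earlier results of these data known. The genes named were the 12 members with the lowest mean L, members in a gene group or list (up to 4 in each), the 3 highest and 3 lowest called members of each test, the 3 on either side of the limit, the 6 with the highest untreated RPKM and members in runs of 3 or more adjacent genes. Genes outside this rule are said to have been named after their values were seen. No sequence was printed because the tables used here hold none. The comparisons of the authors were not used, except through the pathway terms, which they gave as enriched among their called genes.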

Additional observations from a re-analysis of the deposited data

Results flagged for a closer look

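The 4 members whose response to CdCl2 differed between the strains by the interaction term of edgeR were looked at again. AN2998, annotated as a putative folate enzyme, had a TNJ92 response minus THS30 response of -0.59 on the log2 scale, AN3482 had -0.98 and AN3820 had -0.60, so these were repressed more strongly in TNJ92. AN6669 had 1.79, and was repressed less strongly in TNJ92. AN2998 stayed past the threshold in every alternative run, whereas the other 3 lost the call in at least 4 of the 12 fits that left out a library.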

How the results depend on the processing

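The number of members depended on how the fall was measured: 27 genes met the rule with a pseudocount of 5 RPKM, 67 with 0.5 RPKM, 71 with medians over the libraries, 92 with RPKM rescaled by TMM factors (all 58 among them) and 150 with the fitted log2 fold change of edgeR (57 of the 58). TMM scaling moved log2 fold changes of CdCl2 by -0.15 in TNJ92 and -0.13 in THS30 relative to library totals. Leaving out 1 library gave 53 to 71 members. It gave 15 to 20 members higher and 18 to 22 lower in untreated TNJ92, 12 to 16 higher and 21 to 26 lower in CdCl2-treated TNJ92, and 0 to 4 with a more positive and 1 to 5 with a more negative response. Without the filter on low counts 2 responses were more positive. Other settings kept these counts within 1.5 times, and over 34 named genes 1712 of 1801 results kept direction and side of the threshold, 59 lost and 30 gained a call. Deviations from the group means went together between groups for replicate 1 (r of 0.102 to 0.267) and replicate 3 (0.104 to 0.319). For replicate 2 they were mixed (-0.134 to 0.0888). Whether the numbers pair the samples was not settled, and the main fit treated the libraries as unpaired. With the replicate block 2 responses were more positive and 6 more negative, *acoA* gained a call in untreated cultures (-0.38, adjusted p = 0.0119 by edgeR) and in its response (-0.57, 0.0216), AN5591 in CdCl2-treated (0.33, 0.0135) and AN1198 in untreated cultures (0.23, 0.0481), AN3681 in its response (0.53, 0.0217), and *zrfB* lost its call in untreated cultures (0.50, 0.0552). Members with few counts, such as the tRNA genes, AN3520, AN8964 and AN11468, are the least precise. P-values of the main fit rest on a spread estimated over the 4 groups together, each of 3 cultures, with 1 strain for each genotype.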
